A study of Homo sapiens with 9 samples.

Results

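CEP genes are named for the centrosomal proteins they encode, and 36 of them were found among the 19775 genes that had a probe set of their own on the array. The centrosome is the cell's main microtubule-organising centre: a pair of centrioles, barrels of microtubules, embedded in pericentriolar material that holds gamma-tubulin rings. Centrioles are copied during each cell cycle, the older of them carries distal and subdistal appendages, and in resting cells it can dock at the membrane and grow a primary cilium. CEP proteins act at each of these places, and CEP55 acts at the midbody, the bridge that is cut when a cell divides. Members were all genes whose symbol is CEP followed by a number, with or without further letters or digits, and each was read from the probe set with the highest mean over all arrays. That mean chose the probe sets, so levels are given as a description.

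Affymetrix arrays measured total RNA of LiSa-2, a human liposarcoma (fat-tissue sarcoma) cell line. The 3 groups had 3 arrays each: cells given PBS (phosphate-buffered saline) for 24 h, cells given 400 µg/mL bovine testicular hyaluronidase (HAase, an enzyme that cuts the matrix polysaccharide hyaluronan) for 6 h, and cells given the same dose for 24 h. All were grown in plates with bovine serum. The 6 h group has no PBS group of its own hour, so in that comparison enzyme and hour of harvest cannot be told apart. The titles number the replicates, but the labels do not say whether these were separate cultures, and p-values measure the spread between arrays only.

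Signals are linear intensities that the authors had scaled to the same trimmed mean on each array, 500.07 to 500.075. The brightest of 27 Bacillus subtilis control probe sets read 34.2 to 65.0, which is taken here as the control level. Array medians ran from 55.8 to 61.3. Correlations across genes were 0.989 to 0.991 between arrays of a group and 0.952 to 0.974 between arrays of different groups, on the log2 scale. Of 13 genes listed as adipocyte and mesenchymal markers, 12 were above the control level on all PBS arrays, and THY1 was on none of them. The list also holds MDM2 and CDK4, which are not markers of these cell types. The summed signal of the list ran from 93830 to 98440 in PBS, 83520 to 86030 at 6 h and 62580 to 75120 at 24 h. FABP4 and VIM, with PBS means of 33300 and 27450, made up most of the PBS sum. Of 8 epithelial markers, 6 were above control on no PBS array, and the summed signal ran from 485.8 to 629.6 in PBS, 550.1 to 638 at 6 h and 780 to 983 at 24 h. For 6 leukocyte markers the sums were 164 to 171 in PBS, 106.5 to 162 at 6 h and 186 to 220.2 at 24 h, and for 6 endothelial markers 285 to 354, 384 to 436 and 432 to 463. KRT7 had the highest mean of the epithelial list in each group, 318 in PBS, 358 at 6 h and 634 at 24 h. PECAM1 had the highest of the endothelial list, 236, 316 and 349. In PBS 4 of the 6 leukocyte and 4 of the 6 endothelial markers were above control on no array. ACTB probe sets at the 3′ end exceeded those at the 5′ end, a sign of RNA quality, by a log2 difference of 1.56 to 1.70 in PBS, 1.14 to 1.5 at 6 h and 1.38 to 1.62 at 24 h. For GAPDH the 3′ minus 5′ log2 difference ran from −0.02 to 0.04 in PBS, −0.06 to 0.04 at 6 h and −0.21 to −0.02 at 24 h. The part of these differences in the results below was not tested.

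Of the 36 members, 35 were tested. The remaining one, CEP192P1, is a transcribed pseudogene whose signals, 6.36 to 14.5, were below the control level on all arrays. The filter removed genes under the 30th percentile of mean level, a signal of about 32.2. CEP126, at a mean of 84.1 over the 9 arrays, was the tested member nearest to it, and CEP192P1, at 9.97, lay outside it. No tested member read below 47.3 on any array, so none passed the filter through 1 group alone. CEP126 was above the control level on 2 of 3 arrays at 6 h, and the other 34 were above it on all arrays.

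At 6 h of hyaluronidase 22 of 35 CEP genes (62.9%) were lower than in PBS and none was higher. Over all 13842 genes tested with limma, 27.4% were lower and 15% higher at an adjusted p under 0.05, after Benjamini-Hochberg adjustment over all of them. No CEP gene was higher at an unadjusted p under 0.05 either, against 17.7% of all genes. The median log2 fold change was −0.41 for the CEP genes and −0.08 for all genes, and 32 of 35 values were negative. In RNA from whole cultures, fewer cells that express a gene and less of its RNA per cell cannot be told apart. The 3 arrays of each group did not overlap, with 6 h below PBS, for 25 members, against 34.5% of all genes. A fall of 2-fold or more was seen for CEP70, CEP44 and CEP290, against 3.22% of all genes. Fold changes are on the scale of log2(signal + 16), which understates changes of dim probe sets.

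At 24 h 11 of 35 CEP genes (31.4%) were lower than in PBS and 2, CEP120 and CEP19, were higher. The shares over all genes were 22.8% lower and 17.5% higher, so the members' share was closer to the background than at 6 h. Groups did not overlap for 15 members lower than PBS and 2 higher, against 28.9% and 23.1% of all genes. The median log2 fold change was −0.15 for the members and −0.03 for all genes. The count of lower members was 7 without PBS replicate 2, 7 without 24 h replicate 1, and 7 without 24 h replicate 3. In these fits 19.4%, 20.1% and 21% of all genes were lower, near the 7 of 35 members. The count of higher members was 1 without PBS replicate 2, PBS replicate 3, 24 h replicate 2 or 24 h replicate 3. In these fits 2122 to 2163 of all 13842 genes were higher.

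Compared directly, 12 of 35 CEP genes (34.3%) were higher at 24 h than at 6 h and 1, CEP72, was lower. The shares over all genes were 19.7% and 13.3%. The median difference was 0.21 for the members and 0.05 for all genes. The comparisons share arrays and are set side by side here only.

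**Figure D1:**
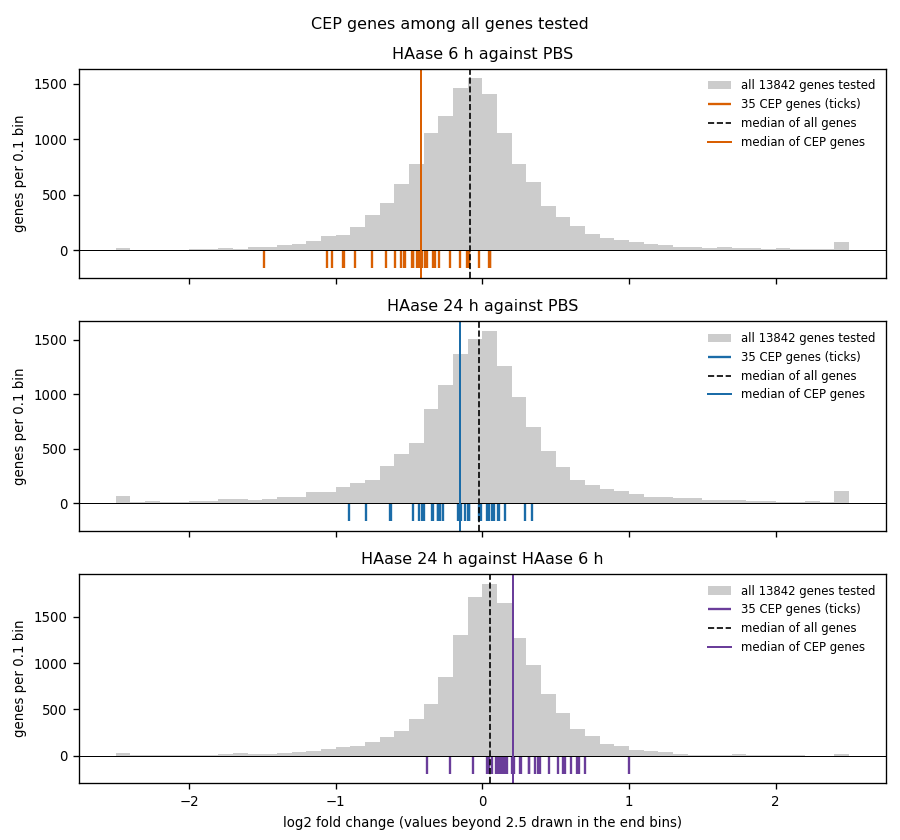
Histograms of the log2 fold change of all 13842 genes tested, 1 panel per comparison, with genes per 0.1 bin on the vertical axis. Ticks under the axis are the 35 CEP genes, the coloured line is their median and the dashed line is the median of all genes, −0.41 against −0.08 at 6 h, −0.15 against −0.03 at 24 h and 0.21 against 0.05 between the times.

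**Figure D2:**
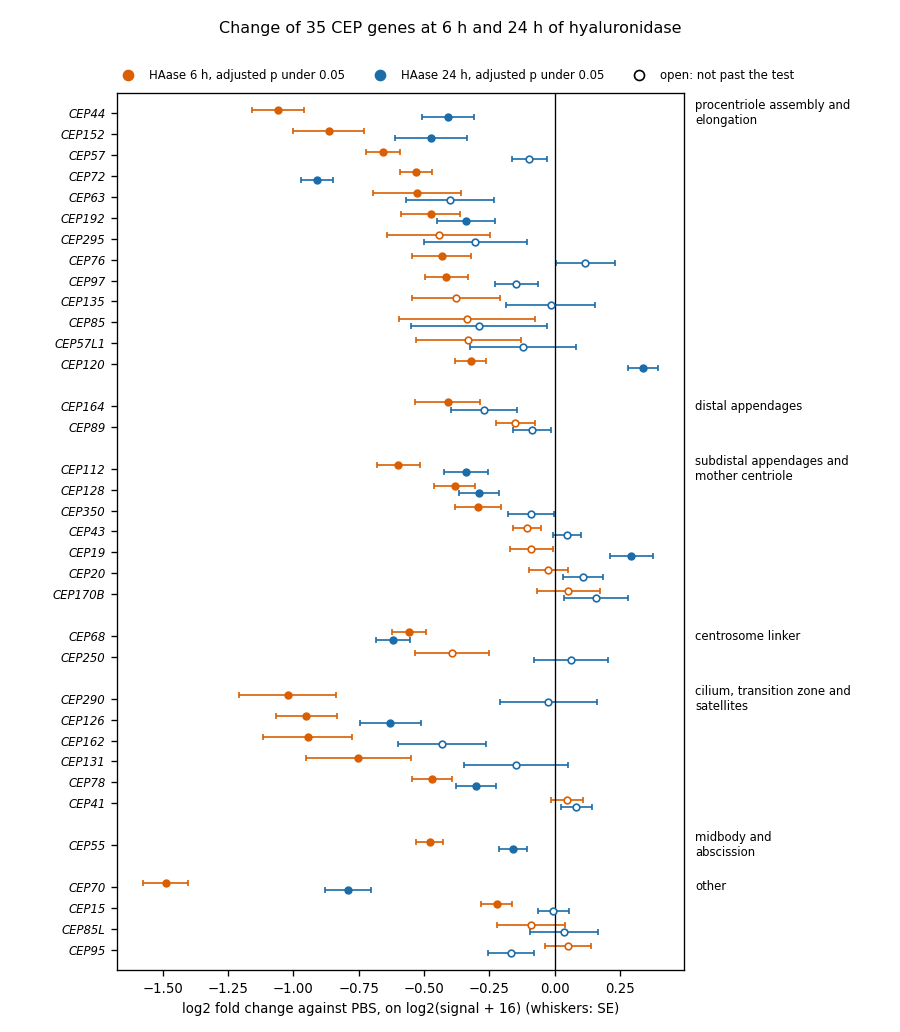
Log2 fold change against PBS of each tested CEP gene at 6 h (orange) and 24 h (blue), grouped by role, with whiskers for the standard error and filled points for an adjusted p under 0.05. At 6 h 22 points are filled and all of these lie left of 0; at 24 h 13 are filled, 11 left and 2 right of 0.

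Promoters of 6 members are shown as examples. CEP70, CEP44 and CEP290 had the largest falls at 6 h, and CEP72 had the largest fall at 24 h. CEP57 was lower at 6 h and near its PBS level at 24 h, and CEP55 is the midbody member. Each run is from RefSeq on GRCh38.p14, spans 250 bases before to 50 after the gene's start and reads 5′ to 3′ along the gene. Capitals mark every match, on either strand, to CCAAT (the NF-Y box), TTTGAA (the cell cycle homology region), TTTCGCG or TTCCCGC (E2F) and GTTGCC (1 arm of the RFX X-box). The positions are chr3:138594211-138594510 (minus strand) for CEP70, chr4:174283661-174283960 (plus strand) for CEP44, chr12:88142039-88142338 (minus strand) for CEP290, chr5:612090-612389 (plus strand) for CEP72, chr11:95789764-95790063 (plus strand) for CEP57 and chr10:93496362-93496661 (plus strand) for CEP55.
CEP70: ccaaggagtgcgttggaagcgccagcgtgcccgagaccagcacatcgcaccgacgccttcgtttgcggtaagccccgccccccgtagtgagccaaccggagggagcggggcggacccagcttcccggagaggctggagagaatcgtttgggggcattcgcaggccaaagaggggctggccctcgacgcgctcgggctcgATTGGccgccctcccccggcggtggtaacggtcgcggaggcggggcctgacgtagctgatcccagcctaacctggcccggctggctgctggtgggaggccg
CEP44: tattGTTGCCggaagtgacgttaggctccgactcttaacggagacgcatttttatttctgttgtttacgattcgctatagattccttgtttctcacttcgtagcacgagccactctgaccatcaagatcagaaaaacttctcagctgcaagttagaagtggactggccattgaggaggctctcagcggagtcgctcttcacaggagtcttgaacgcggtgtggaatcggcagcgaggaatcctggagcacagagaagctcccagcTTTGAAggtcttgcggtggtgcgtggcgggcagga
CEP290: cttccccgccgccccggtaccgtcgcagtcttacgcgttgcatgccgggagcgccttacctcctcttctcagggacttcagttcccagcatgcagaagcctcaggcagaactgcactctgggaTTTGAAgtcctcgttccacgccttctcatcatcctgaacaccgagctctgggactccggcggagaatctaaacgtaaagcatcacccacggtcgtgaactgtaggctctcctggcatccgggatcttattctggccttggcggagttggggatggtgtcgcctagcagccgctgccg
CEP72: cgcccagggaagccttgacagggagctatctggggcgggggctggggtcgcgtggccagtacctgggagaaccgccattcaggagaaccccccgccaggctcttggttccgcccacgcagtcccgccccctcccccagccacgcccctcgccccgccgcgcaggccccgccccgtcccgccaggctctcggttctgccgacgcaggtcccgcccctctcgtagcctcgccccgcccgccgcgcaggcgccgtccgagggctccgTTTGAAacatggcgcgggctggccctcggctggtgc
CEP57: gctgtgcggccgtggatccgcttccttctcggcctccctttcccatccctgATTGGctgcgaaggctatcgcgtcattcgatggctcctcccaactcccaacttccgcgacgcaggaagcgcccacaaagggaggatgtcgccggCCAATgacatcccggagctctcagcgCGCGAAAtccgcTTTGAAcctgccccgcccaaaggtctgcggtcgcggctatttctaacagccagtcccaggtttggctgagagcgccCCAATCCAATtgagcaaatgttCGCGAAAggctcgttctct
CEP55: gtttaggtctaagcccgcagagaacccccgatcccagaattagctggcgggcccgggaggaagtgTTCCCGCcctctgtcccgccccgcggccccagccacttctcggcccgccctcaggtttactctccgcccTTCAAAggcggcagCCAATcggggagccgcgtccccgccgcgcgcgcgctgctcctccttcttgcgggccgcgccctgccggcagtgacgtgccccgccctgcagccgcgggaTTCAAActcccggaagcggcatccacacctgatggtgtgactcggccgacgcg
CEP57 holds 4 CCAAT boxes (2 of them side by side), 1 TTTGAA and 2 TTTCGCG, while CEP70 holds 1 CCAAT and none of the other motifs. CEP55 holds 2 TTTGAA, both on the opposite strand, with 1 CCAAT and 1 TTCCCGC. CEP44 holds 1 TTTGAA and 1 GTTGCC, and CEP290 and CEP72 hold 1 TTTGAA each. The promoter of CEP120, which differed by 0.66 between the times, is not shown and holds none of these motifs.

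A promoter was matched for 31 of the 36 members, and CEP15, CEP170B, CEP192P1, CEP250 and CEP78 were not matched. CCAAT was in 17 of these 31 (54.8%), against 35.7% of all 27305 promoters and 36.5% of the 11166 promoters of tested genes. TTTGAA was in 12 (38.7%), against 15.4% and 10.3%. TTCCCGC was in 9 (29.0%), against 6.56% and 9.76%, and TTTCGCG in 2 (6.45%), against 1.35% and 2.33%. GTTGCC was in 10 (32.3%), against 12.2% and 13%. These are matches of letters in a window, with no statement on binding.

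Proteins of procentriole assembly, elongation and maturation formed the largest group, with 13 members tested. At 6 h 9 were lower (69.2%, against 27.4% of all genes) and none higher (against 15%). At 24 h 4 were lower (CEP44, CEP152, CEP192 and CEP72) and 1, CEP120, was higher. These are 30.8% and 7.69% of the group, against 22.8% and 17.5% of all genes. CEP152 is the scaffold that, with CEP192, brings the kinase PLK4 to the mother centriole. Its signals were 1492, 1744 and 1357 on the PBS arrays, 734, 992 and 783 at 6 h and 1133, 1165 and 985 at 24 h. Every treated array was below every PBS array. The log2 fold change was −0.86 (SE 0.14, 1.82-fold lower, adjusted p = 0.00156) at 6 h and −0.47 (adjusted p = 0.0257) at 24 h. Leaving out PBS replicate 1, PBS replicate 2, 24 h replicate 1 or 24 h replicate 3 ended the 24 h call (adjusted p 0.0516 to 0.0818), as did taking the mean of all its probe sets (−0.14, adjusted p = 0.508). CEP63, its partner in the ring around the centriole, was at −0.53 (adjusted p = 0.0363) at 6 h and −0.40 (adjusted p = 0.0961) at 24 h. The 6 h call of CEP63 was lost without any PBS array, 6 h replicate 1 or 3, or 24 h replicate 3 (adjusted p 0.0509 to 0.11), and at 24 h CEP63 passed without 24 h replicate 2 (−0.54, adjusted p = 0.0366). CEP192 was lower at 6 h, −0.48 (adjusted p = 0.0103), and at 24 h, −0.34 (adjusted p = 0.0429). At 24 h CEP192 did not pass when PBS replicate 2, PBS replicate 3, any 24 h array or 6 h replicate 3 was left out (adjusted p 0.0517 to 0.125).

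CEP57 sits with CEP63 and holds pericentriolar material to the centriole. Its signals were 930.1, 912 and 895 in PBS, 534, 624.5 and 561 at 6 h and 869, 822 and 865 at 24 h. The 6 h arrays lay below all others. The fit gave a log2 fold change of −0.66 (SE 0.07, 1.58-fold lower, adjusted p = 1.39e-04) at 6 h and −0.10 (adjusted p = 0.283) at 24 h, and 24 h was higher than 6 h by 0.56 (adjusted p = 4.71e-04). In a fit over all probe sets, all 5 of CEP57 were lower at 6 h, from −0.45 to −0.88. At 24 h 4 of these were between −0.10 and −0.02, and the last was at −0.80 (adjusted p = 0.0374). Its paralog CEP57L1 was at −0.33 (adjusted p = 0.232) at 6 h.

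CEP44 is a protein of the centriole lumen needed for a new centriole to become a centrosome. Its signals were 672, 727.5 and 749.8 in PBS, 366, 320.2 and 321 at 6 h and 492.5, 616 and 505 at 24 h. The 3 groups did not overlap. On the log2 scale the change was −1.06 (SE 0.10, 2.08-fold lower, adjusted p = 1.01e-04) at 6 h and −0.41 (adjusted p = 0.0118) at 24 h. This probe set is named _x_at, Affymetrix's suffix for sets with probes that may match other genes. The second tested set of CEP44 was at −0.54 (adjusted p = 0.115) at 6 h and at 0.00 (adjusted p = 0.993) at 24 h. With the mean of all its probe sets the 24 h value turned to 0.12 (adjusted p = 0.582) and the 6 h call was lost (−0.32, adjusted p = 0.138).

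CEP120 promotes elongation of the new centriole. Its signals were 892.5, 878 and 905 in PBS, 702, 764 and 668 at 6 h and 1139, 1106 and 1147 at 24 h. The groups were fully separate, with 6 h below PBS and 24 h above it. It was lower at 6 h, −0.32 (SE 0.06, 1.25-fold, adjusted p = 0.00314), and higher at 24 h, 0.34 (SE 0.06, 1.26-fold, adjusted p = 0.00247). The difference between the times was 0.66 (SE 0.06, adjusted p = 1.27e-04). A second, dimmer probe set was at −0.03 at 6 h and 0.41 at 24 h and passed in neither comparison (adjusted p = 0.917 and 0.133), and with the mean of both the 6 h call was lost (−0.18, adjusted p = 0.225).

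CEP72, a protein of pericentriolar satellites that helps organise the pericentriolar material, was the member that went further down at 24 h. It is counted here in the procentriole group and not with the satellite members below. Its signals were 2792, 2770 and 2472 in PBS, 1839, 1865 and 1833 at 6 h and 1386, 1400 and 1462 at 24 h. No array of a group reached the next. Against PBS the log2 change was −0.53 (SE 0.06, 1.45-fold lower, adjusted p = 2.76e-04) at 6 h and −0.91 (SE 0.06, 1.88-fold lower, adjusted p = 1.12e-05) at 24 h. Between the times it was lower at 24 h, at −0.38 (adjusted p = 0.0022).

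CEP97, which caps the centriole and holds back cilium growth, and CEP76, which limits repeated copying, were lower at 6 h, at −0.41 (adjusted p = 0.00433) and −0.43 (adjusted p = 0.0167). CEP76 did not pass when PBS replicate 3, 6 h replicate 2 or 6 h replicate 3 was left out (adjusted p 0.0505 to 0.0556). At 24 h CEP97 was at −0.15 (adjusted p = 0.191) and CEP76 at 0.12 (adjusted p = 0.465). Without PBS replicate 1 CEP97 passed at 24 h (−0.23, adjusted p = 0.0381). The mean of all its probe sets gave CEP97 −0.235 (adjusted p = 0.065) at 6 h and −0.27 (adjusted p = 0.0412) at 24 h. The remaining members of the group passed in neither comparison. CEP295 was at −0.44 at 6 h (adjusted p = 0.11), CEP135, a protein of the cartwheel that seeds the new centriole, at −0.38 (adjusted p = 0.112) and CEP85 at −0.34 (adjusted p = 0.346). CEP295 passed at 6 h when 6 h replicate 2 was left out (−0.61, adjusted p = 0.0425), and CEP135 when 24 h replicate 3 was left out (−0.38, adjusted p = 0.0229).

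Appendages mark the older centriole of a pair. Of 2 distal appendage members, CEP164, which docks the mother centriole to membrane, was lower at 6 h (−0.41, adjusted p = 0.0308) and CEP89 was at −0.15 (adjusted p = 0.141). CEP164 no longer passed when PBS replicate 1, PBS replicate 3 or any 6 h array was left out (adjusted p 0.0662 to 0.0963), or with the mean of all its probe sets (−0.25, adjusted p = 0.0516). At 24 h they were at −0.27 and −0.09, and neither passed. Of 7 subdistal and mother-centriole members, CEP112, CEP128 and CEP350 were lower at 6 h (42.9%, against 27.4% of all genes). In this group 28.6% were lower and 14.3% higher at 24 h, against 22.8% and 17.5% of all genes. CEP128, a subdistal appendage protein, was at −0.38 (adjusted p = 0.00532) at 6 h and −0.29 (adjusted p = 0.0187) at 24 h. At 24 h it did not pass when PBS replicate 2, 24 h replicate 1 or 24 h replicate 3 was left out (adjusted p 0.0569 to 0.0649), and with the mean of all its probe sets it passed at neither time (−0.24, adjusted p = 0.063, and −0.16, adjusted p = 0.197). CEP112 was at −0.60 (adjusted p = 8.38e-04) at 6 h and −0.34 (adjusted p = 0.0129) at 24 h. With the mean of all its probe sets both calls were lost, at −0.21 (adjusted p = 0.381) and −0.09 (adjusted p = 0.713).

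CEP350, CEP43 and CEP19 form a chain at the mother centriole through which CEP19 starts loading of cilium transport proteins. At 6 h CEP350 was at −0.29 (adjusted p = 0.0275), CEP43 at −0.11 (adjusted p = 0.145) and CEP19 at −0.09 (adjusted p = 0.433). CEP350 no longer passed when PBS replicate 2, PBS replicate 3, 6 h replicate 1 or 6 h replicate 2 was left out (adjusted p 0.0563 to 0.09). With the mean of all probe sets CEP350 was at −0.17 (adjusted p = 0.297) at 6 h and −0.35 (adjusted p = 0.0481) at 24 h, and CEP43 at −0.20 (adjusted p = 0.0491) at 6 h. At 24 h CEP19 was higher, 0.29 (adjusted p = 0.0243), with means of 830 ± 42.5 in PBS, 780.2 ± 64.7 at 6 h and 1021 ± 75.4 at 24 h (SD, n = 3). CEP19 no longer passed when PBS replicate 2, PBS replicate 3, 24 h replicate 2 or 24 h replicate 3 was left out (adjusted p 0.0521 to 0.0791). CEP20 was at −0.02 and 0.11, and CEP170B at 0.05 and 0.16, at 6 h and 24 h, and neither passed.

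Centrosome linker proteins tether the centrioles to each other between divisions. CEP68, one of them, read 1746, 1639 and 1754 in PBS, 1176, 1122 and 1180 at 6 h and 1038, 1099 and 1195 at 24 h. All treated arrays were below all PBS arrays, and the treated groups overlapped. The log2 fold change was −0.56 (SE 0.06, 1.47-fold lower, adjusted p = 3.14e-04) at 6 h and −0.62 (SE 0.06, 1.54-fold lower, adjusted p = 1.48e-04) at 24 h, with −0.06 between the times (adjusted p = 0.51). In the fit over all probe sets, another CEP68 set was at −0.27 (adjusted p = 0.177) at 6 h and −0.79 (adjusted p = 0.00302) at 24 h. Between the times that set was lower at 24 h, at −0.52 (adjusted p = 0.0274). CEP250, the linker's anchor, was at −0.39 at 6 h (adjusted p = 0.0566) and 0.06 at 24 h (adjusted p = 0.764). Without 6 h replicate 2 its 6 h value was −0.57 (adjusted p = 0.00161).

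Members grouped under the cilium, its transition zone or centriolar satellites held some of the larger 6 h changes. Of these 6, 5 were lower at 6 h (83.3%, against 27.4% of all genes). At 24 h 2 (CEP126 and CEP78) were lower (33.3%, against 22.8% of all genes). The median 6 h log2 fold change of the group was −0.85. CEP72, counted with the procentriole group, is not among these 6. CEP290 builds the gate at the cilium base, and mutations in it cause ciliopathies. Its signals were 419, 387 and 381 in PBS, 165, 252 and 156 at 6 h and 452, 407 and 318 at 24 h. The 6 h arrays were below all others, and the 24 h and PBS arrays overlapped. The fit gave a log2 fold change of −1.02 (SE 0.19, 2.03-fold lower, adjusted p = 0.00305) at 6 h and −0.02 (adjusted p = 0.934) at 24 h. Between the times it was higher at 24 h by 1.00 (adjusted p = 0.00467). With the mean of all its probe sets that difference was 0.39 (adjusted p = 0.28).

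CEP162 works with CEP290 at the transition zone. It read 158, 213 and 216.5 in PBS, 94.8, 113 and 74.6 at 6 h and 155, 149 and 118 at 24 h. The groups did not overlap, with 24 h between 6 h and PBS, although the lowest PBS array was close to the highest 24 h array. On the log2 scale the change was −0.95 (SE 0.17, adjusted p = 0.00288) at 6 h and −0.43 (adjusted p = 0.0782) at 24 h, where it passed when PBS replicate 1 was left out (−0.57, adjusted p = 0.0372). CEP126, a microtubule-binding protein needed for cilium formation, read 131, 110.1 and 127 in PBS, 47.3, 56.7 and 63.6 at 6 h and 81, 62.2 and 78.2 at 24 h. Its treated arrays were all below its PBS arrays, and the 6 h arrays were near the control level. Against PBS the log2 change was −0.95 (SE 0.12, 1.93-fold lower, adjusted p = 4.31e-04) and −0.63 (SE 0.12, 1.55-fold lower, adjusted p = 0.00345).

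CEP131 is a satellite protein. It read 393, 425 and 448 in PBS, 309.8, 272 and 171 at 6 h and 433, 382 and 328 at 24 h. The 6 h arrays spread over more of a range than the others but stayed below them. The log2 fold change was −0.75 (SE 0.20, adjusted p = 0.0177) at 6 h, which was lost without PBS replicate 3 (−0.71, adjusted p = 0.055), and −0.15 (adjusted p = 0.6) at 24 h. CEP78, whose loss causes retinal degeneration with hearing loss, was at −0.47 (adjusted p = 0.00178) at 6 h and −0.30 (adjusted p = 0.0148) at 24 h, with an adjusted p of 0.0502 at 24 h without PBS replicate 3. CEP41, which supports glutamylation of ciliary tubulin, did not pass at either time (0.05 and 0.08). Another CEP41 probe set was higher at 24 h in the fit over all probe sets, by 0.49 (adjusted p = 0.00376).

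CEP55 brings the ESCRT membrane-cutting machinery to the midbody. It read 5550, 5955 and 6004 in PBS, 4138, 4111 and 4292 at 6 h and 5368, 5202 and 5084 at 24 h. The 3 groups did not overlap. The fit gave a log2 fold change of −0.48 (SE 0.05, 1.39-fold lower, adjusted p = 2.37e-04) at 6 h, and 24 h was higher than 6 h by 0.32 (adjusted p = 0.00268). The 24 h value against PBS was −0.16 (adjusted p = 0.0424), a call kept in 7 of 20 alternative settings and lost without PBS replicate 2 or 3 or any 1 treated array (adjusted p 0.0563 to 0.121).

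CEP70 binds gamma-tubulin and helps organise microtubules, and it had the largest change among the members at 6 h. Its signals were 869.6, 890.1 and 857 in PBS, 313, 317 and 274 at 6 h and 551, 501 and 447 at 24 h. The groups were separate, with 24 h between 6 h and PBS. On the log2 scale the change was −1.49 (SE 0.09, 2.81-fold lower, adjusted p = 9.06e-06) at 6 h and −0.79 (SE 0.09, 1.73-fold lower, adjusted p = 2.06e-04) at 24 h. Of its 4 other probe sets, 3 were lower at 6 h (−0.70 to −1.04) and at 24 h (−0.55 to −1.01), and 1 was at −0.20 (adjusted p = 0.54) at 6 h. The difference between the times was 0.70 (adjusted p = 6.78e-04) on the main set and 0.03 to 0.23 on the others, none of which passed.

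Among the members not placed in a role, CEP15 was lower at 6 h, −0.22 (adjusted p = 0.017), and at −0.01 at 24 h (adjusted p = 0.949). Leaving out PBS replicate 2 or 6 h replicate 2 ended the 6 h call (adjusted p 0.0583 and 0.052), as did the mean of all its probe sets (−0.26, adjusted p = 0.0553). CEP85L, a paralog of CEP85, was at −0.09 and 0.03, and CEP95 at 0.05 and −0.17, and neither passed.

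Other probe sets of the called members were compared where they passed the filter. At 6 h 17 called members had such sets: for 14 all of them had the same sign, for 9 another set passed in the same direction, and for 0 did another pass in the opposite one. At 24 h there were 10 such members, with counts of 7, 5 and 0. Of members not called on the main set, 3 other sets passed at 6 h, and all were lower: 1 each of CEP57L1 (−0.70, adjusted p = 0.0321), CEP41 (−0.45, adjusted p = 0.00624) and CEP43 (−0.43, adjusted p = 0.0306). At 24 h 7 such sets passed. The 3 lower sets belonged to CEP57, given above, CEP295 (−0.58, adjusted p = 0.00835) and CEP350 (−0.47, adjusted p = 0.0335). The 4 higher sets belonged to CEP41, given above, CEP89 (0.57, adjusted p = 0.00402), CEP20 (0.38, adjusted p = 0.0146) and CEP76 (0.18, adjusted p = 0.0471). Between the times 5 such sets passed: 4 were higher at 24 h (of CEP41, CEP63 and CEP89) and 1 was lower (of CEP68). A further 3 probe sets carried a CEP symbol together with other symbols and were left out.

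**Figure D3:**
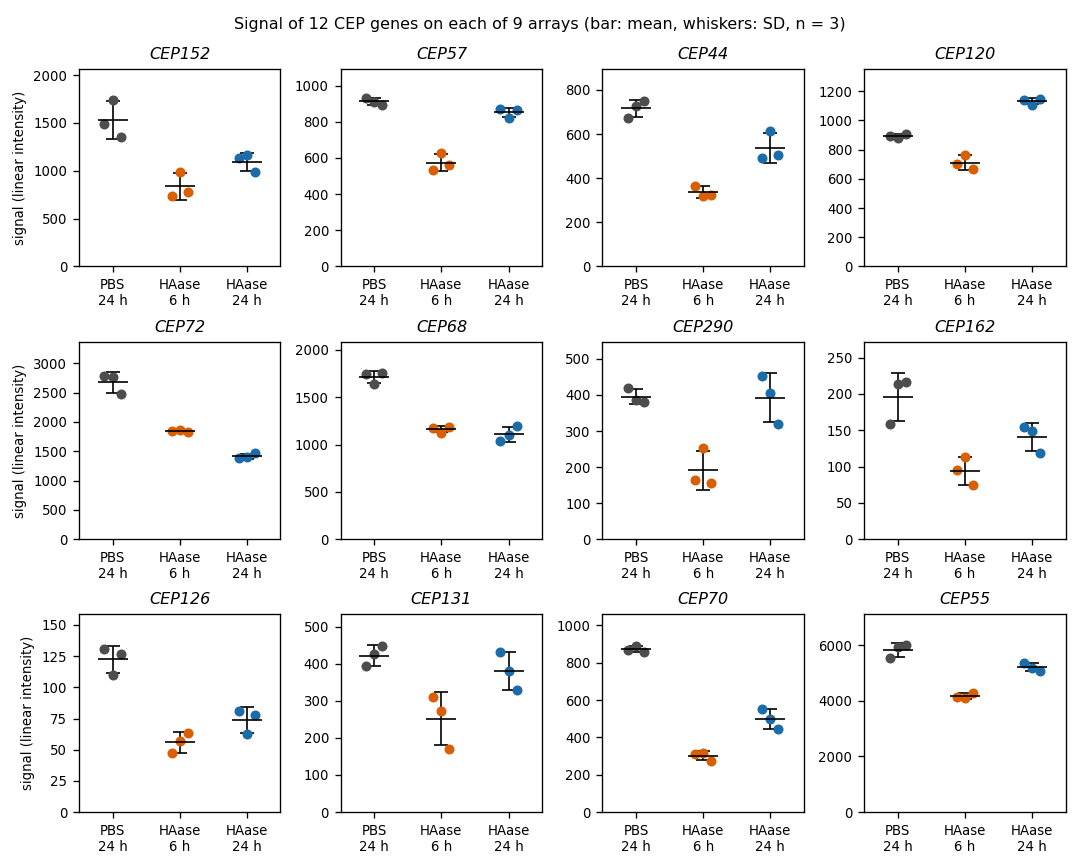
Signal on each of the 9 arrays for 12 CEP genes, with bars for the mean and whiskers for the SD (n = 3), on axes that start at 0. The genes were chosen for the size of their change, with CEP55 added, so the panels do not stand for all members. At 6 h the points lie below those of PBS in all 12 panels, and in 25 of the 35 members tested. In CEP120 the 24 h points lie above PBS, and in CEP72 they lie below 6 h.

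Partner genes from lists of the same structures were counted in the same fit. The lists were chosen with earlier results of these data known. Their shares are read against the 27.4% lower and 15% higher of all genes at 6 h, and the 22.8% and 17.5% at 24 h. In the list of pericentriolar material and gamma-tubulin genes, 12 of 18 were lower and 1 higher at 6 h, and 5 lower and 1 higher at 24 h. AURKA, a mitotic kinase, had means of 7485 ± 212 in PBS, 4183 ± 96.1 at 6 h and 6916 ± 184 at 24 h (SD, n = 3), with log2 fold changes of −0.84 (adjusted p = 8.97e-06) and −0.11 (adjusted p = 0.103). NINL, a protein that anchors gamma-tubulin, was lower at both times, at −1.25 and −1.34 (adjusted p = 2.17e-04 and 1.20e-04). AKAP9, a scaffold of the same material, was at −1.40 at 6 h (adjusted p = 0.00508) and −0.15 at 24 h (adjusted p = 0.706).

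The list of centriole duplication partners was more mixed: at 6 h 9 of 20 were lower and 3 higher, and at 24 h 3 were lower and 4 higher. RTTN, which helps build the full-length centriole, read 819.7, 865 and 772 in PBS, 1415, 1346 and 1347 at 6 h and 2276, 2335 and 2271 at 24 h. It was higher at both times, by 0.73 (adjusted p = 3.77e-05) and 1.47 (adjusted p = 5.75e-07). CETN3, a centrin, was lower at 6 h, −0.59 (adjusted p = 7.05e-05), and at −0.01 at 24 h. Of 16 appendage and linker partners, 5 were lower (31.2%, near the 27.4% of all genes) and 1 higher at 6 h, and 5 were lower and 2 higher at 24 h. The largest change in this list was that of CCDC102B, at 0.38 (adjusted p = 0.114) at 6 h and −1.82 (adjusted p = 7.87e-05) at 24 h. At 24 h CCDC102B was above the control level on 1 of 3 arrays. NEK2, the kinase that dissolves the linker before mitosis, had means of 3544 ± 220 in PBS and 1603 ± 14.8 at 6 h (SD, n = 3). Its log2 fold change was −1.14 (adjusted p = 4.64e-06) at 6 h and −0.21 (adjusted p = 0.0244) at 24 h. The 24 h call of NEK2 was lost when any of 4 arrays was left out (adjusted p 0.0532 to 0.0728).

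The cilium lists came next. Of 21 transition zone genes, 10 were lower and 1 higher at 6 h, and 7 lower and 1 higher at 24 h. TMEM107, a transition zone membrane protein, was at −0.83 at 6 h (adjusted p = 1.88e-05) and −0.39 at 24 h (adjusted p = 9.63e-04). Of 36 intraflagellar transport and BBSome genes, 22 were lower and 2 higher at 6 h, and 11 lower and 7 higher at 24 h. IFT74 was at −1.10 at 6 h (adjusted p = 2.86e-04), and BBS1, a BBSome subunit, was lower at both times, at −0.65 and −0.80 (adjusted p = 5.47e-04 and 1.59e-04).

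In the list of cytokinesis and abscission genes, to which CEP55 is closest, 14 of 22 were lower and 2 higher at 6 h, and 8 lower and 2 higher at 24 h. CHMP4C, an ESCRT subunit of the abscission checkpoint, read 624, 659 and 591 in PBS, 121, 136 and 157 at 6 h and 87.1, 77.4 and 110.5 at 24 h, log2 fold changes of −2.06 and −2.58 (adjusted p = 1.16e-05 and 2.21e-06). KIF20A, a motor of the central spindle, was at −1.84 at 6 h (adjusted p = 1.17e-05) and −1.05 at 24 h (adjusted p = 1.81e-04). Median log2 fold changes at 6 h were −0.25 for pericentriolar material, −0.18 for centriole duplication, −0.33 for appendages and linker, −0.205 for the transition zone, −0.31 for intraflagellar transport and BBSome, and −0.46 for cytokinesis, beside −0.08 for all genes.

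**Figure D4:**
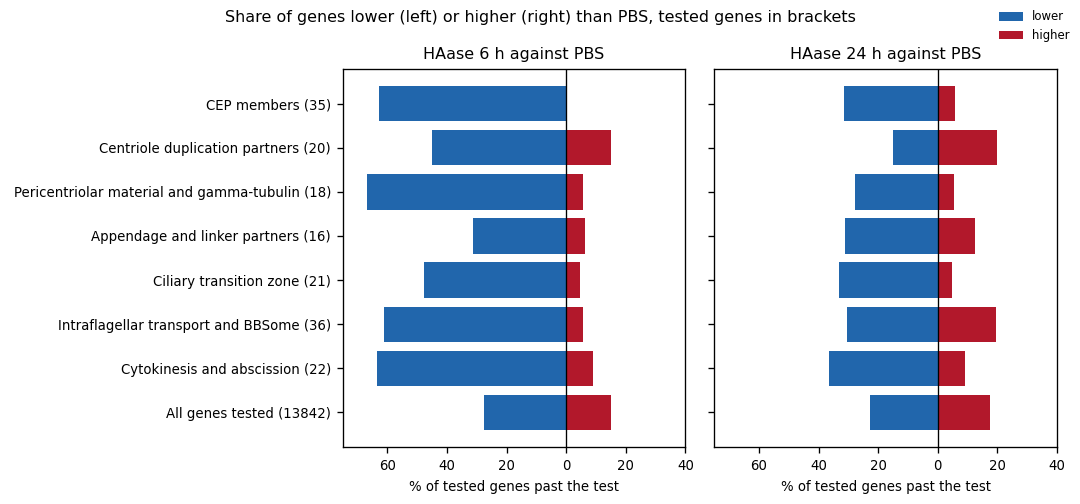
Percent of tested genes lower (left of 0) or higher (right of 0) than PBS at 6 h and at 24 h, for the CEP genes, 6 partner lists and all genes tested, with the number tested in brackets. At 6 h the CEP bar reaches 62.9% on the left and 0 on the right, against 27.4% and 15% for all genes.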

How the data were processed

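The deposited values, linear signal intensity per probe set, were taken by the authors from CHP files, as the design text says. How probes were summarised, and with which software, is not given in the sources used here. Of 54675 probe sets, 41091 had 1 gene symbol, 1801 several and 11721 none. The signals were taken to log2(signal + 16), the probe set with the highest mean was kept per gene, genes under the 30th percentile of mean were left out, and 13842 genes were fitted with limma 3.58.1 (R 4.3.3, lmFit and eBayes) on all 9 arrays, with Benjamini-Hochberg adjustment in each of 3 comparisons. With 6 residual degrees of freedom, the number of arrays limits the precision. An exact permutation test of 3 against 3 arrays cannot give less than 0.1, and none was used. The steps were tested on simulated data. Values on all arrays are given for CEP genes called against PBS and among the 8 largest changes, the 4 largest between the times, and CEP55. Partner lists name up to 4 genes. Symbols and promoters are from RefSeq (GRCh38.p14); no protein sequences are shown. Alternatives were pseudocounts, filters, normalizations, probe set choice, variance model, a replicate block and leaving out arrays; choosing probe sets by mean linear signal was added after seeing the data. The members and lists were chosen with earlier results of these data known.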

Additional observations from a re-analysis of the deposited data

Results flagged for a closer look

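For 13 members the value at 24 h of hyaluronidase differed from that at 6 h by the test of the difference itself (limma, adjusted p under 0.05). The log2 difference, 24 h minus 6 h, was 1.00 for CEP290, 0.70 for CEP70, 0.66 for CEP120, 0.65 for CEP44, 0.56 for CEP57, 0.55 for CEP76, 0.46 for CEP250, 0.38 for CEP19, 0.32 for CEP55, 0.27 for CEP97, 0.26 for CEP112, 0.22 for CEP15 and −0.38 for CEP72. These cover 12 higher and 1 lower member. The calls of CEP120, CEP19, CEP55, CEP57, CEP72 and CEP76 held in all 20 alternative settings. Those of CEP112, CEP250, CEP97 and CEP15 held in 7, 9, 10 and 14 of them. CEP290, CEP70 and CEP44 each held in 19 and lost the call with the mean of all probe sets. With that mean their differences were 0.39, 0.24 and 0.44 (adjusted p = 0.28, 0.129 and 0.0663). Leaving out 1 array ended the call of CEP112 for 7 arrays (adjusted p 0.0701 to 0.142), of CEP250 for 8 (0.0555 to 0.117), of CEP97 for 5 (0.0631 to 0.108) and of CEP15 for 3, 6 h replicates 1 and 2 and 24 h replicate 3 (0.0651 to 0.069). Among the fits that left out 1 array, CEP112 passed without 6 h replicate 2 or 24 h replicate 3, CEP250 without 6 h replicate 2, and CEP97 without any PBS array or 6 h replicate 2.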

How the results depend on the processing

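The count of CEP genes lower at 6 h, 22 in the reported fit, was 15 with the mean of all probe sets of a gene. It was 17 to 22 when 1 array was left out, and 0 were higher in every setting run. Of all genes, 20.9% were lower at 6 h with that mean and 22.2% to 27.1% when 1 array was left out. At 24 h the 11 lower became 7 with the mean of all probe sets and 7 to 12 when 1 array was left out. The 2 higher became 1 to 2 when 1 array was left out, against 2122 to 2341 of all 13842 genes. With that mean 18.8% of all genes were lower at 24 h, near the 7 of 35 members. The share of all genes was 19.4% to 22.4% when 1 array was left out. With the 50th percentile filter 10 of 33 members were lower at 24 h, near the 30.4% of all genes. Between the times the 12 higher became 7 with the mean of all probe sets and 9 to 13 when 1 array was left out. The 1 lower became 1 to 2. Among all 13842 genes, 1808 were higher between the times with that mean, and 2153 to 2629 when 1 array was left out. For lower genes the shares were 10.3% with that mean and 11.1% to 12.8% when 1 array was left out. With that mean CEP44 at 24 h was 0.123 and CEP97 between the times was −0.034, both with the sign turned; the cause was not tested. With the replicate number of the titles as a block, 21 members were lower at 6 h. At 24 h 10 were lower and 2 higher, and between the times 11 were higher and 1 lower. Among all 13842 genes in that fit, 3518 (25.4%) were lower at 6 h. At 24 h 2950 genes (21.3%) were lower and 2237 higher, and between the times 2442 were higher and 1675 (12.1%) lower. Deviations correlated from −0.049 to 0.037 between same-numbered arrays of different groups and from −0.064 to 0.057 between differently numbered ones. No shared effect of the number was seen, but this cannot show whether the arrays were paired. Calls held in all settings run for 11 of 22 members at 6 h, 5 of 13 at 24 h and 6 of 13 between the times. The number of arrays limits the precision, as do the dim signals near the control level.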
